A study of Mus musculus with 24 samples.

Results

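The 45 genes described here are a list of mitosis and G2/M genes, taken by symbol from the 55401 genes counted in each of the 3 deposited tables. Each of the 45 was found once per table, and all 45 had enough counts to be tested in all 3. The list was drawn up by name and holds the kinases, cyclins, motors and chromosome proteins that cells make in G2 and mitosis, sorted here by role into 2 transcription factors, 7 genes of the CDK1, cyclin and CDC25 group, 3 spindle and centrosome kinases, 3 members of the chromosomal passenger complex, 5 kinetochore and checkpoint genes, 7 kinesins, 4 other spindle and midzone proteins, 4 condensin subunits, 3 other chromosome proteins, 3 genes of anaphase and mitotic exit, 3 of cytokinesis and Depdc1a. The genes of the list were chosen with earlier results of these data known, which limits what a count of called genes can show. The libraries were poly(A) RNA-seq of cultured mouse pancreatic ductal adenocarcinoma (PDAC) lines, 24 in 11 groups. KPsh cells carry a doxycycline-controlled hairpin against p53, so that doxycycline keeps p53 low and its withdrawal lets p53 return. They were grown with 1 µg/ml doxycycline (on, 3 libraries) or without it (off, 3 libraries) for 10 days. KPnull cells, named for their lack of p53, carried a doxycycline-inducible empty vector, wild-type p53 (p53WT), or p53 mutated in the first (TAD1m), the second (TAD2m) or both (TAD12m) of its transactivation domains, with 2 libraries each. All 10 KPnull libraries were taken as given 1 µg/ml doxycycline for 48 hours, as the growth protocol says, although the series text speaks of cells with or without it. Of KPsh cells in which Pcyt2 was knocked out there were 2 lines, 1 without (sgPcyt2) and 1 with a Pcyt2 cDNA that the guide cannot cut. Each was sampled with 1 µg/ml doxycycline and after 6 days without it, with 2 libraries for each of the 4 combinations. Both Pcyt2 lines are therefore edited, and no unedited line stands beside them. Whether a line is 1 clone, and the species of the introduced p53, are not given in the sources used here. In the KPsh and Pcyt2 sets doxycycline and p53 change together, so their shares in a difference cannot be told apart.

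Entry into mitosis is driven by the kinase CDK1 bound to cyclin A or cyclin B, which CDC25 phosphatases switch on. The transcripts of this machinery accumulate only from late S phase to mitosis, under a complex of MuvB proteins with B-MYB (Mybl2) and FOXM1. In quiescent or p53-arrested cells the same promoters are held down by the DREAM complex, which is MuvB with E2F4 and the pocket proteins p130 or p107. p53 is known to act on these genes indirectly, mainly through its target Cdkn1a, the gene of the CDK inhibitor p21. Because the samples are bulk RNA, fewer dividing cells and less RNA of these genes per cell cannot be told apart.

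The total counts per library were between 9393966.5 and 19431249.5. Trp53 was present at 20.3 to 21.8 CPM (counts scaled to a common library size) in KPsh cells on doxycycline and at 252 to 263 CPM off it. It stood at 4.54 and 6.13 CPM with the vector and between 525 and 686 CPM in the 8 libraries with an introduced p53. In the Pcyt2 set Trp53 was at 19.2 to 22.7 CPM on doxycycline, 86.8 and 97.2 CPM off it with the cDNA, and 41.7 and 42.1 CPM off it without the cDNA. Cdkn1a was at 50.6 to 53.4 CPM on and 454 to 510 CPM off doxycycline in KPsh cells. In KPnull cells it was at 38.7 and 47.5 CPM with the vector, 358 and 401 with p53WT, 290 and 299 with TAD2m, 52.5 and 54.4 with TAD1m, and 32.6 in both TAD12m libraries. Of 7 ductal epithelial markers, Krt8, Krt18, Krt19 and Cdh1 were at 401 CPM or more in every library. Epcam reached at most 1.38 CPM and Cldn4 at most 0.436 CPM, and Sox9 was between 0.824 and 2.02 CPM in KPnull cells, so 2 or 3 of the 7 markers were nearly absent. Fibroblast markers summed to at most 9.45 CPM and endothelial markers to at most 8.27 CPM in any library, with Col1a2, Dcn and Lum at 0 in all 24. Immune markers summed to between 8.8 and 31.3 CPM, mainly Csf1r, with Adgre1 at 0 in all libraries.

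Among the 45 genes, levels per transcript length were highest for Top2a, the topoisomerase that untangles sister chromatids, at a mean over all libraries of 117 CPM per kilobase. Ccna2, the gene of cyclin A2, followed at 103, Cdc20, the activator of the anaphase-promoting complex, at 77.6, and the cytokinesis exchange factor Ect2 at 75.1. Depdc1a was lowest at 6.12 CPM per kilobase. Summed over the 45 genes, the level in KPsh cells was 8967, 8861 and 8970 CPM on doxycycline and 5291, 5611 and 5319 CPM off it. In KPnull cells the sums were 9685 and 9369 CPM with the vector, 4247 and 4420 with p53WT, 4484 and 4497 with TAD2m, 8424 and 8222 with TAD1m, and 9870 and 9260 with TAD12m. The p53WT and TAD2m libraries lay together, well below the vector, and the TAD12m libraries spanned the range of the vector. In the Pcyt2 set the sums were 8845 and 8608 CPM on doxycycline and 1179 and 1052 CPM off it with the cDNA, against 8095 and 8377 CPM on and 680 and 771 CPM off without it. The 4 off-doxycycline libraries of that set were the lowest of all 24.

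**Figure D1:**
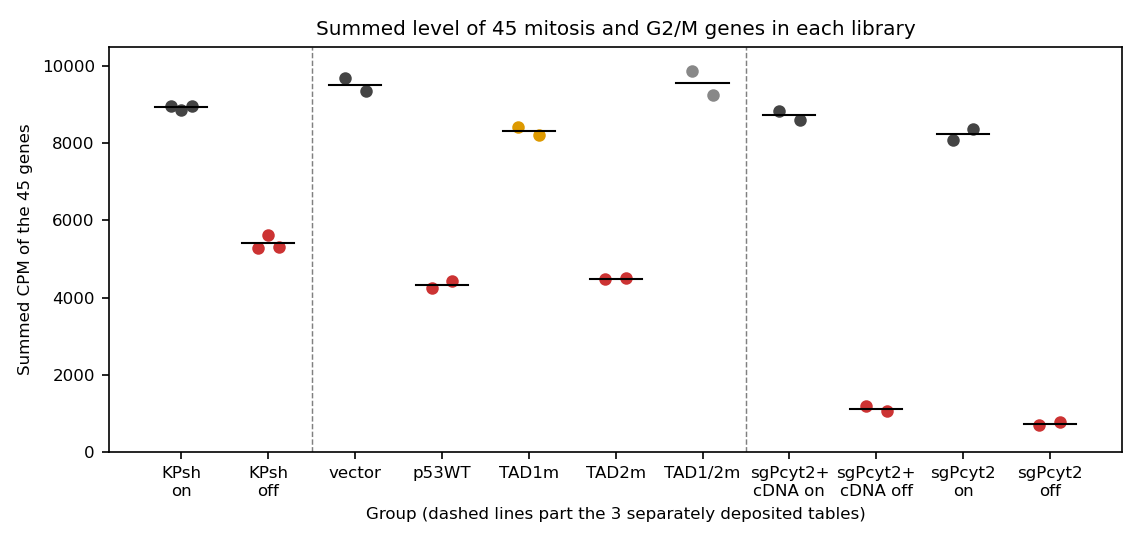
Summed CPM of the 45 genes (y axis) in each of the 24 libraries (points), by group (x axis), with the group mean as a line and dashed lines between the 3 tables. The off-doxycycline, p53WT and TAD2m libraries sit below their references in each table, and the Pcyt2 off-doxycycline libraries lie between 680 and 1179 CPM.

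Since the genes moved together, their promoters were searched on both strands for 2 elements. The first was the cell cycle genes homology region (CHR, searched as TTTGAA or TTCGAA), through which DREAM and the MuvB complexes are known to bind. The second was the CCAAT box (searched as CCAAT). RefSeq promoter windows of build GRCm38.p6, from 250 bases before to 50 bases after the start, were at hand for 37 of the 45 genes. Aurkb, Ccna2, Cdc25c, Cdca2, Foxm1, Kif20a, Smc4 and Tpx2 had no window in that table. Of those with a window, 6 are shown, as the 150 bases that end just before the start, 5′ to 3′ on the gene's strand, with CHR and CCAAT letters in capitals (TTCAAA and ATTGG are the same elements on the other strand).
Top2a (chr11:99024190-99024339, minus strand): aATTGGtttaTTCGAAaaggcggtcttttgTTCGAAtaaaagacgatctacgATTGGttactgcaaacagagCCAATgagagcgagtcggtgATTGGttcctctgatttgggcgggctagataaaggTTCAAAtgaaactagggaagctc
Mki67 (chr7:135716380-135716529, minus strand): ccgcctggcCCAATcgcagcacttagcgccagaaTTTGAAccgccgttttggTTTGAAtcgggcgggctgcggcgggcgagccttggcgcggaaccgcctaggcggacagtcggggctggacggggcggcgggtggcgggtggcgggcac
Kif11 (chr19:37376232-37376381, plus strand): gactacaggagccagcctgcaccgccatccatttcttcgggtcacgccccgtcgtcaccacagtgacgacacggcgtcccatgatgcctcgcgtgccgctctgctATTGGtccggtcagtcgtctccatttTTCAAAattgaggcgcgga
Depdc1a (chr3:159495283-159495432, plus strand): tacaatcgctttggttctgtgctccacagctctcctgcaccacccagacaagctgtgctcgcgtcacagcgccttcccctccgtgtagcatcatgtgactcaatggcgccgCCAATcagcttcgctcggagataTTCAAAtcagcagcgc
Hmmr (chr11:40733438-40733587, minus strand): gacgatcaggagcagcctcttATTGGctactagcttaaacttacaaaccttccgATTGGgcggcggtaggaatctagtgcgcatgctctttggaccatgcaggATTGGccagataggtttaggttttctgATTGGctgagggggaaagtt
Nusap1 (chr2:119618148-119618297, plus strand): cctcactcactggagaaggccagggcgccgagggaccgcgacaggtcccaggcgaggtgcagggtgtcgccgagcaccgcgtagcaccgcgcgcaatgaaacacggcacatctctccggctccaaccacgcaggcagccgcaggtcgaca
Top2a, Kif11 and Depdc1a have a CHR shortly before the start with at least 1 CCAAT box ahead of it. Those CHR elements begin at -23, -19 and -16, counted from the start at 0, and the nearest CCAAT boxes at -58, -45 and -39. Top2a has further CHR elements in the stretch, at -140 and -120. Mki67, the gene of the proliferation antigen Ki-67, has its CHR elements farther away, at -116 and -98. Hmmr, a spindle protein gene, has 4 CCAAT boxes in the stretch, and its CHR lies after the start, at position 8, outside the stretch shown. Nusap1 has neither element in its window.

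A CHR match was present in 31 of the 37 genes (83.8%) and in 21.7% of all 27025 genes with a window. From 60 bases before the start onwards it was present in 75.7% of the 37 and 6.79% of all. Of the 28 genes with a CHR there, 18 had it after the start, such as Aurka, Bub1 and Plk1, and 10 before it. A CCAAT box was present in 86.5% against 41.1%, at least 2 of them in 54.1% against 13.3%, and a CHR together with a CCAAT box in 78.4% against 8.61%. Among genes with at least 2 CCAAT boxes, a pair with starts 30 to 36 bases apart was present in 8 of 20 of these genes (40%) and in 15.9% of all. An E2F core (TTTCCCGC, TTTGGCGC, TTTGCCGC or TTTCGCGC) was found in only 8.11% against 2.6%. Among 32 other G2/M genes with a window, a CHR was present in 59.4% and a CHR together with a CCAAT box in 34.4%. For 14 E2F, pocket protein and MuvB genes the shares were 42.9% and 35.7%. For 12 genes of the anaphase-promoting complex and its activator Fzr1 they were 8.33% and 0%. A match is a run of letters, not a bound site. Of the 37 genes, those with both elements and those lacking at least 1 of them had similar medians. With p53WT the median log2 change was -1.14 for the 29 with both and -1.18 for the other 8, and in sgPcyt2 cells after withdrawal -3.54 and -3.84.

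**Figure D2:**
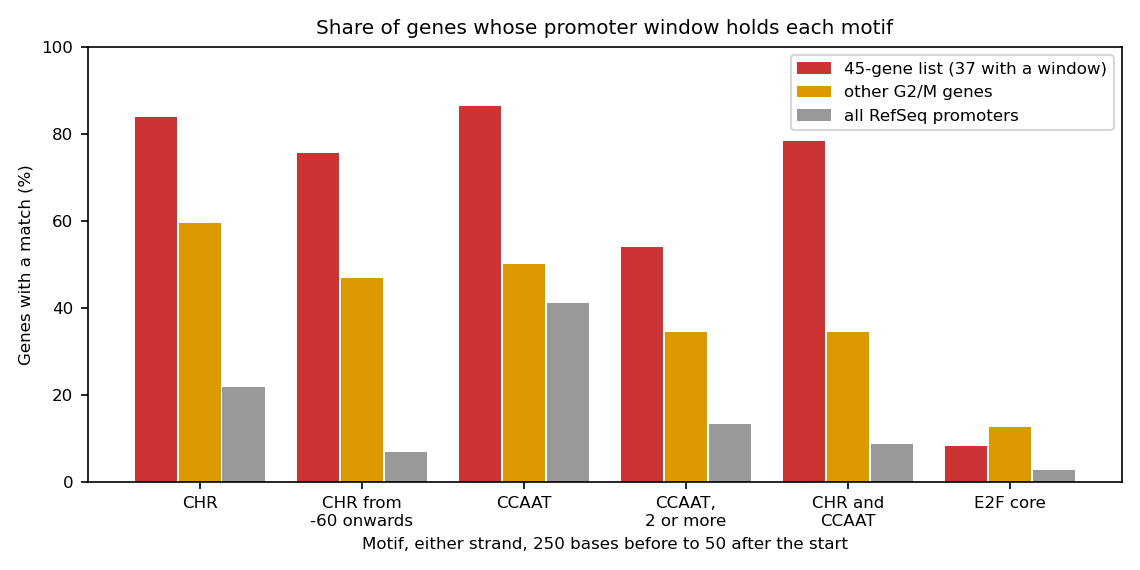
Percentage of genes (y axis) whose RefSeq promoter window holds each motif (x axis), for the genes of the list with a window, for 40 other G2/M genes as far as they have one, and for all genes. A CHR together with a CCAAT box was found in 78.4% of the 37 genes and in 8.61% of all.

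When doxycycline was withdrawn from KPsh cells for 10 days, nearly the whole list fell, by amounts that differed between the genes. By edgeR's quasi-likelihood test with Benjamini-Hochberg adjustment over 13990 genes, 43 of the 45 were lower at an adjusted p under 0.05 and none was higher. Of all genes tested, 31.7% were lower and 33.1% higher. The median log2 change was -0.65 for the 45 (a median level of 63.9% of that on doxycycline) and 0.00717 for all genes. The changes ran from -1.27 to -0.04, with a standard deviation over the genes of 0.293. Mki67 was at 722, 723 and 719 CPM on doxycycline and at 265, 341 and 293 CPM off it. The groups were far apart, and the log2 change of -1.27 (SE 0.07, adjusted p = 1.52e-11) was the deepest of the list. Espl1, the gene of separase, which cuts cohesin at anaphase, went from 139, 149 and 151 CPM to 57.8, 62.5 and 65.2 CPM, a log2 change of -1.24. At the other end, Ccnb2 was at 85.7, 93 and 81.3 CPM on and 86.7, 78.5 and 87.2 CPM off doxycycline (log2 change -0.04, SE 0.07, adjusted p = 0.619). Kif18b, a microtubule-depolymerising kinesin, was at 71.2, 68.1 and 73.3 CPM on and 65.1, 68.1 and 67.2 CPM off (log2 change -0.09, adjusted p = 0.249). For both genes the on and off libraries overlapped. Nusap1, at -0.19, was the least of those called, and its call was lost with DESeq2 and when any of KPsh off replicate 1, off replicate 3 or on replicate 1 was left out.

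By role, the 2 transcription factors (median -0.91), the 4 condensin subunits (-0.83) and the 3 other chromosome proteins (-0.82) fell most in KPsh cells, and the 4 spindle and midzone proteins least (-0.37). Smc4, an ATPase subunit of condensin, was at 356, 351 and 352 CPM on and 170, 187 and 157 CPM off doxycycline (log2 change -1.04, adjusted p = 1.41e-12). Prc1, which bundles microtubules at the midzone, was at 189, 174 and 184 CPM on and 136, 145 and 137 CPM off (log2 change -0.39). For both genes every off library lay below every on library. Within the cyclins the contrast was sharp, since Ccna2 fell from 367, 342 and 361 CPM to 183, 181 and 170 CPM (log2 change -1.01) and Ccnb1 changed by -0.87 on the log2 scale, while Ccnb2, which also activates CDK1, was not called. Mybl2 changed by -1.18 and Foxm1 by -0.64. The kinetochore genes lay between -1.03 (Cenpf) and -0.54 (Ttk), the spindle kinases between -0.89 (Nek2) and -0.68 (Plk1), and the kinesins between -1.05 (Kif11, the motor that separates the poles) and the -0.09 of Kif18b. These differences between roles were not tested.

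Among the best-expressed genes of the other roles, Foxm1 was at 191.5, 196 and 193 CPM on doxycycline and 119, 126 and 128 CPM off it in KPsh cells. Aurka was at 168, 158 and 165 CPM on and 92.6, 97 and 94.3 CPM off (log2 change -0.79), and Bub1b at 179.6, 171 and 177 CPM on and 86.7, 99.8 and 93 CPM off (-0.92). Cdca8 was at 102, 105 and 98.55 CPM on and 66.8, 63.5 and 65.02 CPM off (-0.64). These 4 genes, from 4 different roles, had no off library within the range of the on libraries. Ect2 was at 277, 275 and 313 CPM on and 159, 161 and 128 CPM off (-0.95), and the kinesin gene Kif20a at 234.5, 223 and 226 CPM on and 155, 167 and 168 CPM off (-0.48). Cdc20 was at 184.6, 209.9 and 198 CPM on and 170.0, 154.5 and 177.5 CPM off (-0.24), a small fall with the lowest on library close above the highest off library. Depdc1a, the least expressed of the list, was at 19.7, 16.7 and 19.03 CPM on and 12.7, 11.8 and 8.54 CPM off (-0.76).

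**Figure D3:**
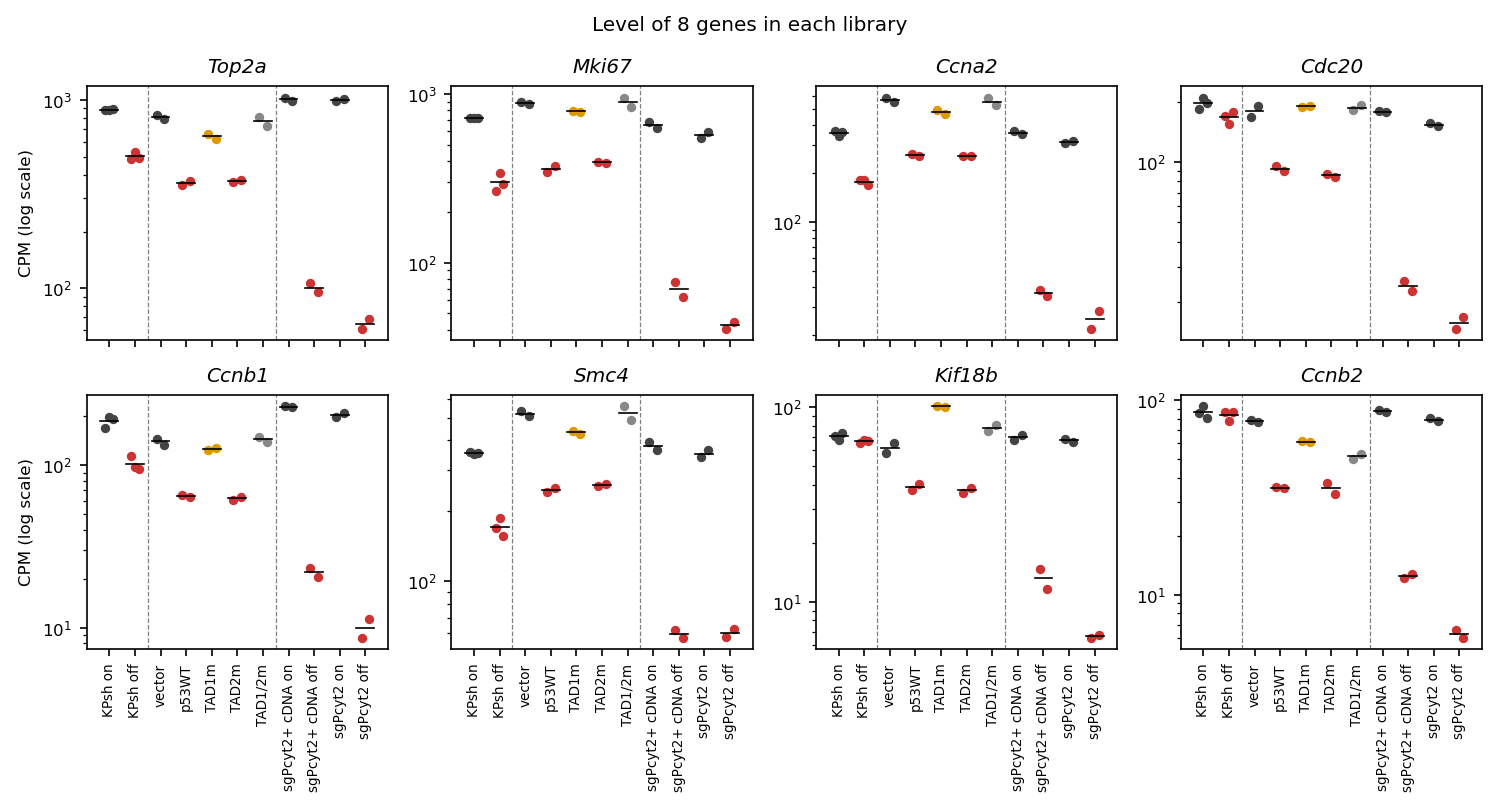
CPM on a log scale (y axis) of 8 genes in each library (points) by group (x axis), with the group mean as a line and dashed lines between the 3 tables. Top2a, Mki67, Ccna2, Ccnb1 and Smc4 are lower off doxycycline in KPsh cells, whereas Ccnb2 and Kif18b are not called there, and Kif18b is highest with TAD1m.

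In KPnull cells given p53WT for 48 hours all 45 genes were lower than with the vector, and with TAD2m all 45 were lower as well. Of 15075 genes tested, 25.1% were lower and 25.5% higher with p53WT, and 24.2% lower and 24.9% higher with TAD2m. The median log2 change of the 45 was -1.14 with p53WT and -1.11 with TAD2m, against -0.00654 and -0.0102 for all genes. Both comparisons use the same vector libraries. The fall was more even than in KPsh cells, from -1.30 to -0.67 with p53WT (standard deviation over the genes 0.127) and from -1.26 to -0.73 with TAD2m (0.110). Mki67 was at 899 and 878 CPM with the vector, 347 and 377 with p53WT, and 397 and 391 with TAD2m. The log2 changes were -1.30 (SE 0.06, adjusted p = 7.26e-11) and -1.17 (SE 0.06, adjusted p = 2.29e-10). Top2a was at 830 and 787 CPM with the vector, 352 and 369 with p53WT, and 369 and 376 with TAD2m. The p53WT and TAD2m libraries lay close together for both genes and far from the vector. The share of counts from mitochondrial genes was 2.25% and 2.36% with the vector, 3.01% to 3.09% in the 4 libraries with p53WT or TAD2m, 2.49% and 2.51% with TAD1m, and 2.16% and 2.46% with TAD12m. Its part in these differences was not tested. The least change belonged to Kif18b (-0.67 with p53WT, -0.73 with TAD2m) and Mybl2 (-0.77 and -0.76). After Mki67, Depdc1a was deepest with p53WT (-1.29), and with TAD2m the mitotic phosphatase gene Cdc25c (-1.26) and the centrosome kinase gene Nek2 (-1.22). Ccnb2, level in KPsh cells, was at 79.4 and 77 CPM with the vector and 35.6 and 35.4 CPM with p53WT, a change of -1.14.

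By role the medians with p53WT lay between -1.18 for the kinetochore genes and -0.83 for the transcription factors, and with TAD2m between -1.16 for the CDK1 and cyclin group and -0.84 for the transcription factors. Bub1b, the checkpoint kinase BubR1, was at 161 and 161 CPM with the vector and 70.1 and 72.2 CPM with p53WT (log2 change -1.18). Aurka, the centrosome kinase, was at 107 and 112 CPM with the vector and 52.7 and 50.7 CPM with p53WT (-1.08). Cdca8, the gene of the passenger protein borealin, was at 94.1 and 93.3 CPM with the vector and 46.8 and 47 CPM with p53WT. In all 3 the p53WT libraries lay far below the vector libraries. Foxm1 was at 164.5 and 169 CPM with the vector and 88.35 and 90.8 CPM with p53WT (-0.90), and Cdc20 at 168 and 189.8 CPM and then 95.2 and 90.01 CPM (-0.95), both among the shallower falls. Depdc1a was at 28.5 and 26.5 CPM with the vector and 11.1 and 11.5 CPM with p53WT. The 4 condensin subunits lay between -1.19 and -1.08 and the 3 cytokinesis genes between -1.24 and -1.08.

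Set directly against p53WT, TAD2m differed at none of the 45 genes by edgeR, where 0.0862% of all genes were lower and 0.199% higher. At an unadjusted p under 0.05 there was 1 of the 45, and DESeq2 called 0. The median log2 difference was 0.05, and the single values lay between -0.11 (Cdc20) and 0.14 (Cdca2 and Hmmr). The standard error of these 3 was 0.07 to 0.08, so differences of this size were not detectable with 2 libraries per group. A p that misses the threshold does not show that the levels were equal. Trp53 itself was lower with TAD2m than with p53WT by 0.34 on the log2 scale.

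With TAD1m the differences were smaller. Against the vector 27 of the 45 were lower and 3 higher, where 17.5% of all genes were lower and 19% higher, and the median change was -0.21. This count fell to 16 (15 lower, 1 higher) without TAD1m replicate 2 and to 20 without vector replicate 1, with fewer libraries in each fit. DESeq2 called 22 lower and 3 higher, and Depdc1a was among those it did not call. The log2 change of Depdc1a went from -0.34 to -0.33 without TAD1m replicate 1 and to -0.295 without vector replicate 1. Ect2 had the deepest change, from 635 and 570 CPM with the vector to 442 and 423 CPM (log2 change -0.48, SE 0.07, adjusted p = 7.77e-05), followed by Cdc25b at -0.37. Top2a was at 657 and 622 CPM (-0.34), Aurka at 89.9 and 86 CPM (-0.31), Smc4 at 440 and 425 CPM (-0.27) and Ccna2 at 489 and 463 CPM (-0.26). For Ect2, Top2a and Aurka both TAD1m libraries lay below both vector libraries. Mki67 was at 795 and 781 CPM (-0.17, adjusted p = 0.0356), a call lost without either TAD1m library (adjusted p = 0.0908 and 0.162) or without vector replicate 1 (0.107). Foxm1 (0.03), Cdc20 (0.08), Bub1b (-0.07) and Kif20a (-0.12) were not called. By role, the cytokinesis genes had the lowest median (-0.31), with all 3 called, and the transcription factors the highest (-0.09), with Mybl2 called.

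The 3 genes that rose with TAD1m were Kif18b, Cenpe and Ccnf. Kif18b went from 58.3 and 65.7 CPM with the vector to 101 and 101 CPM (log2 change 0.70, SE 0.07, adjusted p = 9.03e-07), and kept its call without each library in turn. Cenpe, the kinetochore motor that aligns chromosomes, went from 280 and 275 to 336 and 327 CPM (0.26, adjusted p = 0.00926), and Ccnf, the gene of cyclin F, from 91.3 and 98.6 to 112 and 114 CPM (0.25, adjusted p = 0.00645). For all 3 both TAD1m libraries were above both vector libraries. The calls of Cenpe and Ccnf were lost without TAD1m replicate 2 (adjusted p = 0.0501 and 0.0685), that of Cenpe also without TAD1m replicate 1 (0.0861), and that of Ccnf without vector replicate 1 (0.0978). Against p53WT, all 45 genes were higher with TAD1m (20.4% of all genes higher, 18.7% lower), with a median of 0.93, from 0.55 (Mybl2) and 0.72 (Cdca8) to 1.38 (Kif18b) and 1.46 (Cenpe). Against TAD2m all 45 were likewise higher (18.2% of all genes higher, 17.4% lower), with a median of 0.90, from 0.55 (Mybl2) and 0.61 (Kif23) to 1.37 (Cenpe) and 1.43 (Kif18b).

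With both domains mutated the list stood almost where the vector left it. Against the vector 1 gene was lower and 1 higher, where 1.85% of all genes were lower and 2% higher, and the median was 0.02. The lower gene was Ccnb2, at 49.9 and 52.7 CPM against 79.4 and 77 CPM with the vector (log2 change -0.61, SE 0.07, adjusted p = 6.18e-05). The higher gene was Kif18b, at 75.5 and 80.8 CPM (0.34, adjusted p = 0.0114). Kif18b was not called without vector replicate 1 (adjusted p = 0.168), without TAD12m replicate 2 (0.071) or when only these 2 groups were fitted (0.14). Aurkb (-0.17) and Hmmr (0.22) came next and were not called, although Hmmr was called higher with no filter on low counts (adjusted p = 0.0308) and without TAD12m replicate 2 (0.32, adjusted p = 0.019). Against TAD12m, TAD1m was lower at 28 genes and higher at 2, Kif18b (0.37) and Ccnb2 (0.25), where 14.2% of all genes were lower and 16.8% higher. The deepest were Ect2 (-0.42) and Depdc1a (-0.40), and the median was -0.21. This count of 30 was 15 without TAD1m replicate 2 and 19 without TAD1m replicate 1 or without TAD12m replicate 1, and the call of Ccnb2 was lost in each of these 3 (adjusted p from 0.0708 to 0.0984).

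**Figure D4:**
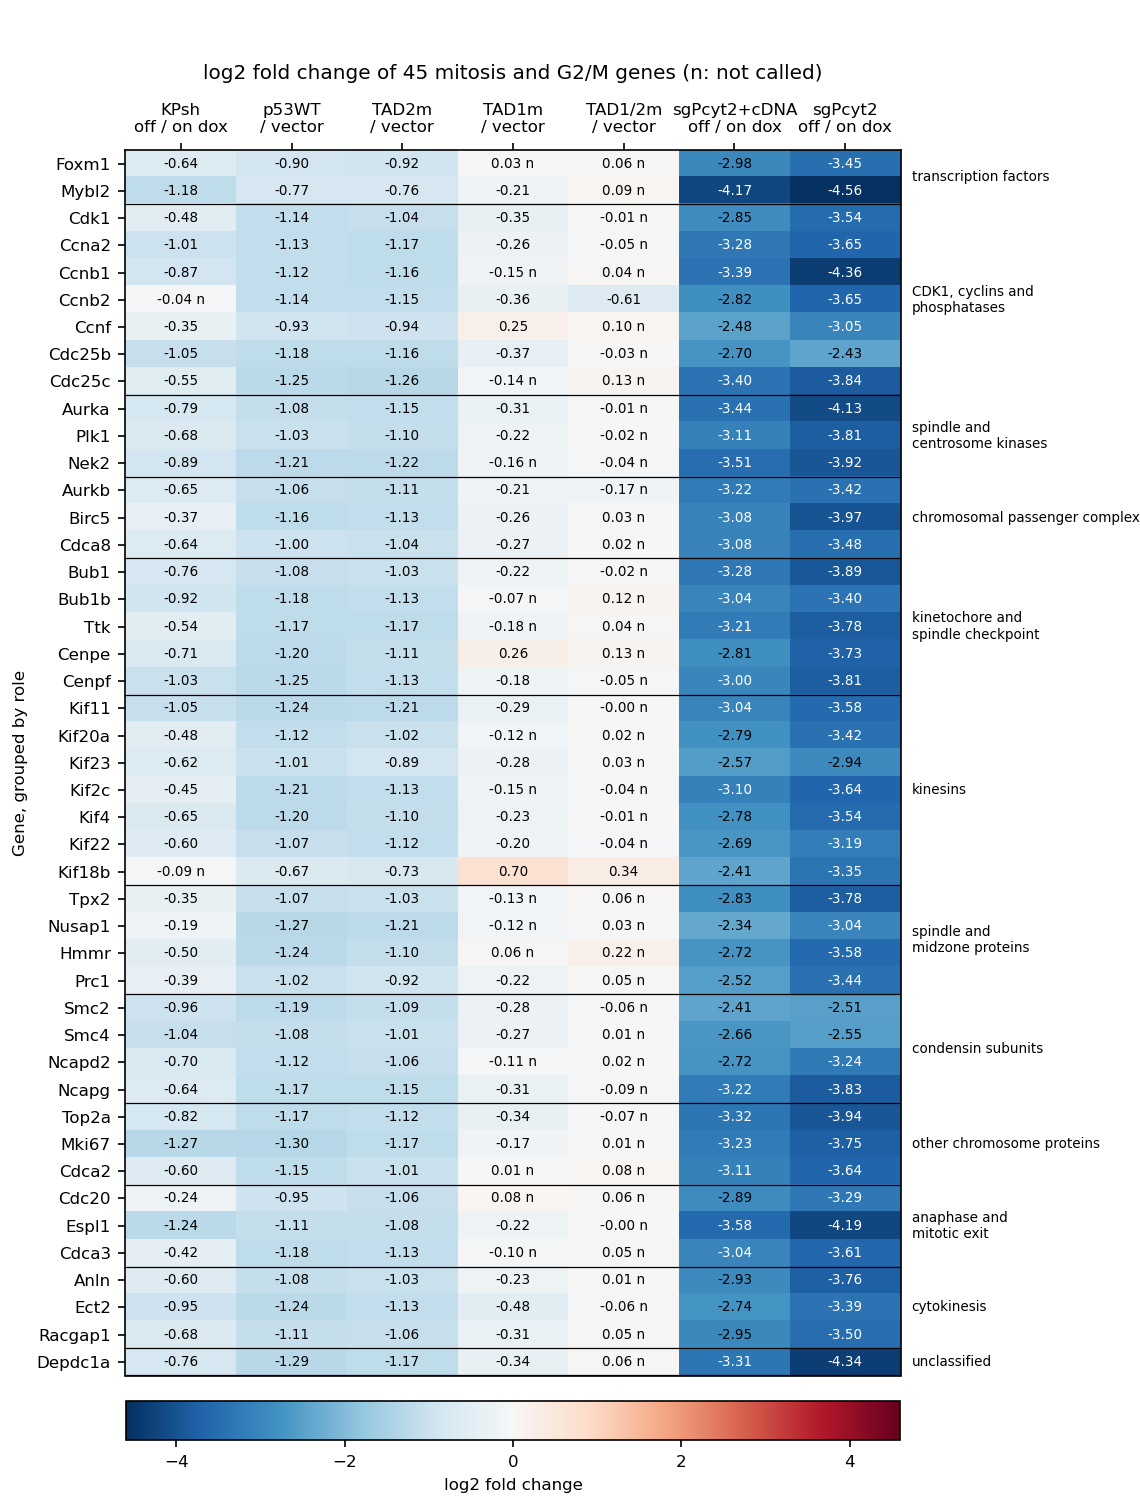
log2 fold change (colour and number) of each of the 45 genes (rows, grouped by role) in 7 comparisons (columns); the letter n marks values not called. The p53WT and TAD2m columns are nearly even, TAD12m is near 0 apart from Ccnb2 and Kif18b, and the 2 Pcyt2 columns hold the deepest values.

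In the Pcyt2 set all 45 genes were lower after 6 days without doxycycline in both lines, at a small part of their former level. In cells with the cDNA 36.3% of 14916 genes were lower and 37.3% higher, and in cells without it 37.1% were lower and 39.2% higher. The median log2 change of the 45 was -3.00 with the cDNA (12.5% of the level on doxycycline) and -3.61 without it (8.19%), against 0.0201 and 0.0244 for all genes. Beside these stands the median of -0.65 in KPsh cells after 10 days, from another table and another time, with no test of the difference. Mybl2 fell most in both lines, from 96.2 and 97.5 CPM to 5.04 and 5.66 CPM with the cDNA (log2 change -4.17, SE 0.09) and from 83 and 87 CPM to 3.67 and 3.53 CPM without it (-4.56, SE 0.10). Espl1 was next with the cDNA (-3.58) and Ccnb1 without it, where it went from 200 and 210 CPM to 8.67 and 11.3 CPM (-4.36, adjusted p = 6.8e-40). Top2a went from 1028 and 986 to 107 and 95.1 CPM with the cDNA (-3.32) and from 982 and 1013 to 60.9 and 68.9 CPM without it (-3.94). Mki67 went from 682 and 628 to 76.4 and 62.9 CPM (-3.23) and from 546 and 596 to 40.5 and 44.4 CPM (-3.75). For these genes no library off doxycycline came near any library on it. The share of counts from mitochondrial genes was 3.31% to 3.51% in the 4 libraries off doxycycline and 1.86% to 2.0% in those on it, and its part in these differences was not tested.

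The least changed genes were Nusap1 (-2.34) and the condensin subunit gene Smc2 (-2.41) with the cDNA, and Cdc25b (-2.43) and Smc2 (-2.51) without it. By role, the transcription factor pair fell most in both lines (medians -3.57 and -4.01). Of the pair, only Mybl2 fell by more than the median of the 45. Foxm1 changed by -2.975 with the cDNA and -3.45 without it, against medians of the 45 of -3.00 and -3.61. The roles that fell least were the spindle and midzone proteins with the cDNA (-2.62) and the condensin subunits without it (-2.89). The spindle and centrosome kinases had medians of -3.44 and -3.92, and the kinesins -2.78 and -3.42. Foxm1 went from 191 and 199 to 26.7 and 22.9 CPM with the cDNA, and from 199 and 199.7 to 16.1 and 20.35 CPM without it. Aurka went from 136 and 147.5 to 13.9 and 12.4 CPM with the cDNA, and from 126 and 135 to 6.6 and 8.34 CPM without it. Prc1 went from 151 and 148 to 27.3 and 24.9 CPM with the cDNA, and from 153 and 159 to 12.5 and 16.4 CPM without it. For Aurka and Prc1 both off-doxycycline libraries without the cDNA lay below both with it. Ccnb2 and Kif18b, not called in KPsh cells, were at 89.2 and 86.9 against 12.2 and 12.7 CPM, and at 67.6 and 72 against 14.8 and 11.6 CPM, on and off doxycycline with the cDNA. Across the 45 genes the changes in KPsh cells and in the cDNA line had a Pearson correlation of 0.483 (n = 45 genes, no libraries shared), those in KPsh cells and with p53WT 0.254, and those with p53WT and in the cDNA line 0.018. These describe the genes, which are not independent replicates.

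Pcyt2 is the gene of an enzyme of phosphatidylethanolamine synthesis. The line without the cDNA was set against the line with it at each doxycycline state. With 1 line of each kind, the cDNA cannot be told apart from any other difference between the lines. On doxycycline 10 of the 45 were lower without the cDNA and none higher, where 10% of all genes were lower and 8.4% higher, and the median was -0.07. Cdc25b was the lowest, at 58.1 and 58.9 CPM against 79.8 and 81.1 CPM (log2 difference -0.46, adjusted p = 4.13e-07), then Nek2 (-0.32). The highest were Prc1 (0.06) and Kif4 (0.03), neither called. DESeq2 called 3 of the 10, and 6, 5 and 6 were called without cDNA replicate 1, cDNA replicate 2 and sgPcyt2 replicate 1 of the on-doxycycline groups. Off doxycycline 41 were lower without the cDNA and none higher (16.8% of all genes lower, 16.3% higher), with a median of -0.68. The 4 not called were Cdc25b (-0.18), Cdc25c (-0.69), Smc2 (-0.12) and Smc4 (0.01). Ccnb1 was lowest, at 8.67 and 11.3 CPM against 23.3 and 20.4 CPM (-1.13, SE 0.10, adjusted p = 2.36e-12), and Depdc1a next (-1.09).

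The difference between the 2 withdrawals was tested as an interaction, which likewise cannot part the cDNA from other differences between the lines. For 37 of the 45 genes the fall was deeper without the cDNA and for none shallower, where 12.4% of all genes had a lower and 12.8% a higher interaction, and the median was -0.57. Depdc1a (-1.03, SE 0.22, adjusted p = 0.000342), Ccnb1 (-0.97, SE 0.11, adjusted p = 3.88e-09) and Tpx2, which brings Aurora A to the spindle (-0.95), differed most. Prc1 (-0.91), Top2a (-0.62) and Kif20a (-0.63) were among those called. By role, the 4 spindle and midzone proteins had the lowest median (-0.88) and all were called, as were the 7 kinesins and the 5 kinetochore genes. The call of Mki67 (-0.51, adjusted p = 0.018) was lost without sgPcyt2 off replicate 1 or 2 (adjusted p = 0.214 and 0.109), which leaves 29 of the 45 called in the first case. Those of Ccna2 (-0.36) and Bub1b (-0.36) were lost without sgPcyt2 off replicate 1 (0.0883 and 0.14), Bub1b also without cDNA off replicate 1 (0.0811). Cdca8 (-0.40, adjusted p = 0.0388) lost its call without any of sgPcyt2 off replicate 1, sgPcyt2 on replicate 1, cDNA on replicate 1 or either cDNA off library (adjusted p from 0.0578 to 0.386).

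The 8 genes without a called interaction were Aurkb, Cdc25b, Cdc25c, Cdca2, Mybl2, Nek2, Smc2 and Smc4. Smc4 was at 394 and 363 CPM on and 62 and 57.6 CPM off doxycycline with the cDNA, and at 340 and 363 CPM on and 58 and 62.4 CPM off without it. The off-doxycycline libraries of the 2 lines overlapped for this gene (interaction 0.11, SE 0.07, adjusted p = 0.274). Smc2 had an interaction of -0.10 (SE 0.08, adjusted p = 0.428), whereas the other condensin subunits Ncapd2 (-0.52) and Ncapg (-0.61) were called. Cdc25b had the highest value (0.28, SE 0.14, adjusted p = 0.153), and was called higher without cDNA off replicate 1 (adjusted p = 0.0386) or without sgPcyt2 off replicate 2 (0.047). Beside the deeper fall, Trp53 rose less on withdrawal without the cDNA (log2 change 1.00) than with it (2.21), an interaction of -1.21. Cdkn1a rose by 2.01 and 2.95 on the log2 scale, an interaction of -0.94. On doxycycline Cdkn1a was at 72.7 and 74.55 CPM without the cDNA and 49.25 and 50.8 CPM with it (log2 difference 0.56). Off doxycycline it was at 291 and 302 CPM without the cDNA and 383 and 392 CPM with it (-0.39). Its interaction thus holds a higher level on doxycycline as well as a lower level off it. The part of Trp53 and Cdkn1a in the deeper fall was not tested.

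**Figure D5:**
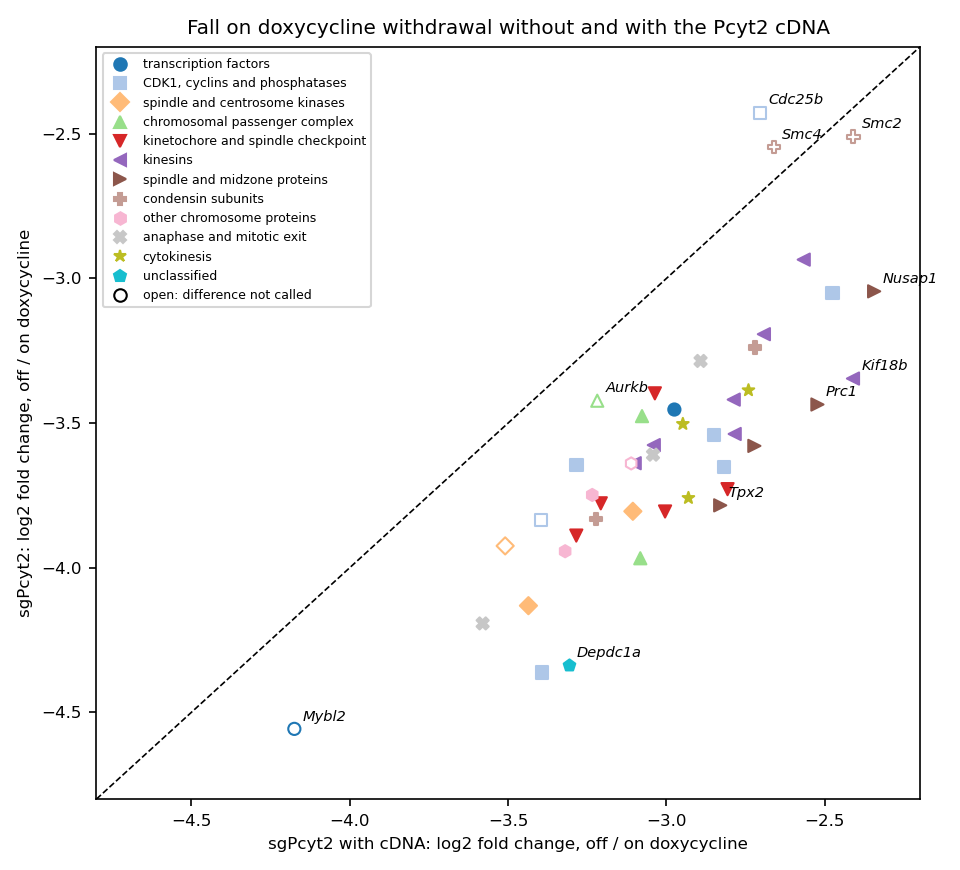
log2 fold change on doxycycline withdrawal in sgPcyt2 cells (y axis) against that in sgPcyt2 cells with the cDNA (x axis), 1 point per gene, shaped by role; the dashed line marks equal change and open symbols an interaction that was not called. Of the 45 genes 43 lie below the line, and Smc4 and Cdc25b lie above it.

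Set side by side, the order of the roles was not the same in the 3 cell systems. The transcription factor pair had the deepest median in KPsh cells (-0.91) and in both Pcyt2 lines (-3.57 and -4.01), but the shallowest with p53WT (-0.83) and TAD2m (-0.84). Of the pair, Mybl2 fell by 1.18 on the log2 scale in KPsh cells and by 0.77 with p53WT, and Foxm1 by 0.64 and 0.90. In the Pcyt2 lines with and without the cDNA, Mybl2 changed by -4.17 and -4.56 and Foxm1 by -2.975 and -3.45. The deepest medians there rest on Mybl2. The condensin subunits had the second deepest median in KPsh cells (-0.83), a middle one with p53WT (-1.15), and the shallowest in sgPcyt2 cells (-2.89). Within condensin, Smc2 and Smc4, the ATPase pair, changed by -2.51 and -2.55 in sgPcyt2 cells, and the other subunits Ncapd2 and Ncapg by -3.24 and -3.83. The kinesins had medians of -0.60 in KPsh cells, -1.12 with p53WT and -3.42 in sgPcyt2 cells, where only the condensin subunits were shallower among the roles. Kif11 and Kif18b were the ends of that role in KPsh cells, and with p53WT again (-1.24 and -0.67). Cdk1 itself changed by -0.48 in KPsh cells, -1.14 with p53WT and -3.54 in sgPcyt2 cells, and Plk1, the polo-like kinase of mitotic entry, by -0.68, -1.03 and -3.81. The spread between roles with p53WT was small, and differences between roles were again not tested.

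The wider pathway was read from other lists. Of 40 other G2/M genes, 33 were lower and 4 higher in KPsh cells off doxycycline, 37 lower and 2 higher with p53WT, 19 lower and 3 higher with TAD1m, and 37 lower and 3 higher in the cDNA line off doxycycline. Of all genes, 31.7% were lower and 33.1% higher in KPsh cells, and 25.1% and 25.5% with p53WT. With TAD1m the shares were 17.5% and 19%, and in the cDNA line 36.3% and 37.3%. The spindle pole gene Aspm (-1.35) and the kinetochore scaffold gene Knl1 (-1.30) fell in KPsh cells by more than any of the 45, and changed by -1.40 and -1.34 with p53WT. Gtse1, a G2 gene whose product binds p53, went the other way, by 1.12 in KPsh cells, 0.57 with p53WT, 0.64 with TAD2m and 0.62 with TAD1m. Zwint, Pttg1 and Ckap2 were the other 3 that rose in KPsh cells, at 0.60, 0.73 and 0.42. Of 13 genes of the core anaphase-promoting complex and its activator Fzr1, 6 were lower and 3 higher in KPsh cells, where all genes had 31.7% lower and 33.1% higher. With p53WT 5 were lower and 1 higher, where all genes had 25.1% and 25.5%. The medians were -0.13 and -0.24. Of 10 cohesin genes, 9 were lower and none higher in KPsh cells (median -0.72), and 9 were lower and 1 higher with p53WT (-0.63). In the cDNA line off doxycycline cohesin had a median of -0.83 and the anaphase-promoting complex -0.52, both far from the -3.00 of the 45. Rad21, the cohesin subunit that separase cuts, changed by -1.29 there. Of 18 E2F, pocket protein and MuvB genes, 14 were lower and 1 higher with p53WT (median -0.58), led by E2f8 (-1.09) and Lin54 (-1.06). In KPsh cells 10 of the 18 were lower and 3 higher (median -0.24), where all genes had 31.7% lower and 33.1% higher. The 3 higher were Rbl2 (0.69), Rb1 (0.56) and Lin37 (0.36). In the cDNA line off doxycycline 15 were lower and 3 higher, where all genes had 36.3% lower and 37.3% higher. The median of the 18 there was -0.95, and the changes ran from -3.02 (E2f8) to 1.32, with E2f7 at -3.00.

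Counting limits a few of these genes. Reads on both strands were counted, and exons of another gene on the opposite strand cover 34.6% of the exon bases of Kif20a (Cdc23), 26.9% of Prc1 (Rccd1), 20.8% of Ncapg (Lcorl), 17.2% of Ccna2 (Exosc9) and 16.7% of Kif4 (Pdzd11). Reads from those stretches cannot be assigned, and the 5 levels are uncertain to that extent. The overlaps were taken from exons of an earlier GENCODE release than the one counted. Pseudogenes of Ccnb1, Ccnb2, Kif22 and Kif4 carried 138, 415, 2 and 1 counts over all libraries, against 42300, 20226, 26983 and 27489 for the genes themselves.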

How the data were processed

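The authors deposited expected counts per gene (not whole numbers for 17.6% to 19.9% of the values of a library) in 3 tables, made with STAR 2.6.1c and HOMER on mm10, per the submitters' processing notes. Per the file headers, exons of GENCODE vM25 were counted on both strands, although the labels' protocols name a stranded kit. Values were rounded to whole counts, with values midway rounded up. KPsh off-doxycycline columns and Pcyt2 cDNA columns were matched to samples by elimination. All value columns had a sample.

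Each table was fitted alone with edgeR 4.0.16 in R 4.3.3 (TMM factors, default filter on low counts, robust quasi-likelihood fit over all groups of the table), with Benjamini-Hochberg adjustment over all genes tested and called under 0.05. DESeq2 1.42.0, other scaling, no filter, fits of the compared groups, a replicate block and leaving out each library were alternatives. CPM uses library sizes after TMM scaling. On simulated counts made from these libraries, changes of 1 on the log2 scale were called for 93.9% (KPsh), 91% (p53WT) and 92% (sgPcyt2) of changed genes among 13774, 14815 and 14534 genes, and changes of 0.5 for 71%, 58% and 75%. Of all genes called in these simulations, 8.38%, 11.3% and 6.18% were false, above the nominal level. Only 99 or 100 genes were changed for each size, far fewer than were called in the real comparisons, so these rates may not carry over.

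Replicates differed by more than sampling noise. The labels do not say that they are separate cultures, so p-values measure the spread between these libraries. The members and lists were chosen with earlier results of these data known. Named are the member of each role with the highest CPM per kilobase, Mki67, the 2 lowest and 2 highest members per comparison, those called against the majority, and from the other lists up to 3 called genes with a mean of at least 5 CPM; others named (Nusap1 and Zwint in KPsh cells, for example) were chosen after their values were seen. Promoter sequences are RefSeq's, GRCm38.p6.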

Additional observations from a re-analysis of the deposited data

Results flagged for a closer look

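The fall on doxycycline withdrawal differed between sgPcyt2 cells with and without the Pcyt2 cDNA for 37 of the 45 genes, by the interaction term of edgeR's quasi-likelihood fit. The largest differences were those of Depdc1a (-1.03 on the log2 scale), Ccnb1 (-0.97) and Tpx2 (-0.95), each with the deeper fall in cells without the cDNA. DESeq2 called 31 of the 37. Groups of 2 or 3 libraries are too small to look for single outlying values.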

How the results depend on the processing

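The calls for all 45 genes with p53WT and TAD2m against the vector, with TAD1m against p53WT and TAD2m, and after withdrawal in both Pcyt2 lines were 45 in every alternative run, and the count for TAD2m against p53WT was 0 in every one. In KPsh cells 42 or 43 were called. For TAD1m against the vector leaving out 1 library gave 16 to 27 calls, and for TAD1m against TAD12m 15 to 33. For TAD12m against the vector it gave 1 to 2, a fit of only those groups 1, and no filter on low counts 3. For sgPcyt2 against the cDNA line on doxycycline DESeq2 gave 3 calls and leaving out 1 library 5 to 11. Off doxycycline this range was 34 to 42, and for the interaction 29 to 38. In such fits the lone sample of a group is assumed to vary like the other groups. Signs turned only for uncalled values, among the named genes and settings run. Leaving out 1 library moved Ccnb2 in KPsh cells between -0.095 and 0.010, Cdc20 with TAD1m between -0.013 and 0.166 against the vector and between -0.025 and 0.055 against TAD12m, Foxm1 with TAD1m between -0.014 and 0.062, Kif4 on doxycycline between -0.010 and 0.075, and Smc4 off doxycycline between -0.055 and 0.063, with -0.052 without cDNA replicate 2 and -0.008 with no filter on low counts. The cause of these shifts was not tested, beyond the smaller number of libraries. The replicate block left 43 calls in KPsh cells, 45 with p53WT and 37 for the interaction, and 40 in place of 41 off doxycycline, and moved no other count. Same-numbered deviations correlated at -0.126 to -0.0996 in KPsh cells and -0.204 to 0.354 in KPnull cells, where 2 libraries a group give both numbers the same value and cannot settle pairing. The labels state no shared source, so the numbers were treated as names only. With crossed numbers, tried after seeing the data for p53WT and TAD2m against the vector, the block again gave 45 calls each. Low levels limit the precision for genes such as Cdc25c, at 1.07 and 1.63 CPM in sgPcyt2 cells off doxycycline.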
